A study of Arabidopsis thaliana with 24 samples.

Results

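The 10 genes described here are those of iron uptake by the Arabidopsis root: IRT1 (AT4G19690), IRT2 (AT4G19680), FRO2 (AT1G01580), FIT (AT2G28160), bHLH38 (AT3G56970), bHLH39 (AT3G56980), bHLH100 (AT2G41240), bHLH101 (AT5G04150), NAS1 (AT5G04950) and FER1 (AT5G01600). They were chosen by locus, and all 10 were found among the 27816 genes tested, through 14 of the 43603 probes of the array. Roots of Col-0 plants of 4 lines, labelled control, ISH1, ISH2 and ISH1&2, were measured with and without estradiol, 3 arrays per group and 24 in all. ISH1&2 carries both inducible genes of the study and ISH1 and ISH2 carry a single gene each, but the labels do not say which, so their names are kept. All plants were 15 d old, had been selected on hygromycin, and were moved after 8 d to plates with 5 µM or with 0 µM estradiol. Estradiol acts through XVE, a chimeric activator expressed from the 35S promoter, which is active in most cells, and in which root cells the genes were induced was not measured. What the control plants carry, and whether a line is 1 clone, is not given in the sources used here. The descriptions of 2 control arrays (replicate 2 of the plates lacking estradiol, replicate 3 of those with it) contradict their titles, and the titles were followed.

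Arabidopsis takes up iron by reduction. FRO2 reduces ferric iron at the root surface, and IRT1 carries the ferrous iron into epidermal cells. Both genes are switched on under iron deficiency by the bHLH factor FIT, which acts as a dimer with one of the related factors bHLH38, bHLH39, bHLH100 and bHLH101. NAS1 makes nicotianamine, a chelator that keeps iron mobile inside the plant, and FER1 encodes ferritin, the plastid protein that stores iron and is raised when iron is ample.

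All 14 probes were well above background on every array on which they were measured, and values below are log2 levels relative to the 75th percentile of each array, so that 0 is the 75th percentile. Levels of different probes cannot be set against each other. Of all probes, 76.9% to 84.8% exceeded background per array, and 91% did so for replicate 1 of ISH1 without estradiol. ATHB25 (AT5G65410) had a level of -0.64 ± 0.52 (SD, n = 3) without and 4.24 ± 0.11 with estradiol in ISH1&2, whereas REM7 (AT3G18960) was at 4.56 ± 0.06 without and 4.66 ± 0.07 with estradiol in this line. In the control plants without estradiol they were at -8.90 ± 0.14, where ATHB25 was not well above background, and -1.64 ± 0.15, so both were higher in ISH1&2 before estradiol was given and the comparison of ISH1&2 with and without estradiol is not one of both genes off and on. In ISH1, ATHB25 was up-regulated by 9.69 on the log2 scale and REM7 by 2.67, and in ISH2 REM7 was up-regulated by 6.11 (limma, adjusted p = 1.1e-13, 1.7e-05 and 1.1e-09). Without estradiol, ATHB25 was at -4.46 ± 0.23 in ISH1 and REM7 at 0.03 ± 0.18 in ISH2, both above the control means. These 2 responses thus did not start from the control level either. Also without estradiol, REM7 in ISH1, at -1.61 ± 0.05, was near its control mean, and ATHB25 in ISH2, at -7.21 ± 0.69, was above its own. The arrays of a line with and without estradiol lay on different slides, 6 in all, each with all 4 lines. No source says that the replicates came from separate cultures, so p-values measure the spread between these arrays.

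Without estradiol, no iron gene passed the test against the control plants in any line. At an adjusted p under 0.05 by limma, 0 of the 10 genes were called in ISH1, in ISH2 and in ISH1&2. At an unadjusted p under 0.05 these counts were 0, 2 and 0. The 2 in ISH2 were FRO2 and bHLH100, both higher than in the control plants. Over all genes tested, 0.766%, 0.651% and 9.62% were called in these comparisons. Estradiol itself gave no call in the control plants, with 0 of 10 genes at the adjusted and 1, FER1, at the unadjusted threshold, beside 7.14% of all genes called higher and 7.85% called lower. The levels without estradiol are given for each gene beside those with it.

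**Figure D1:**
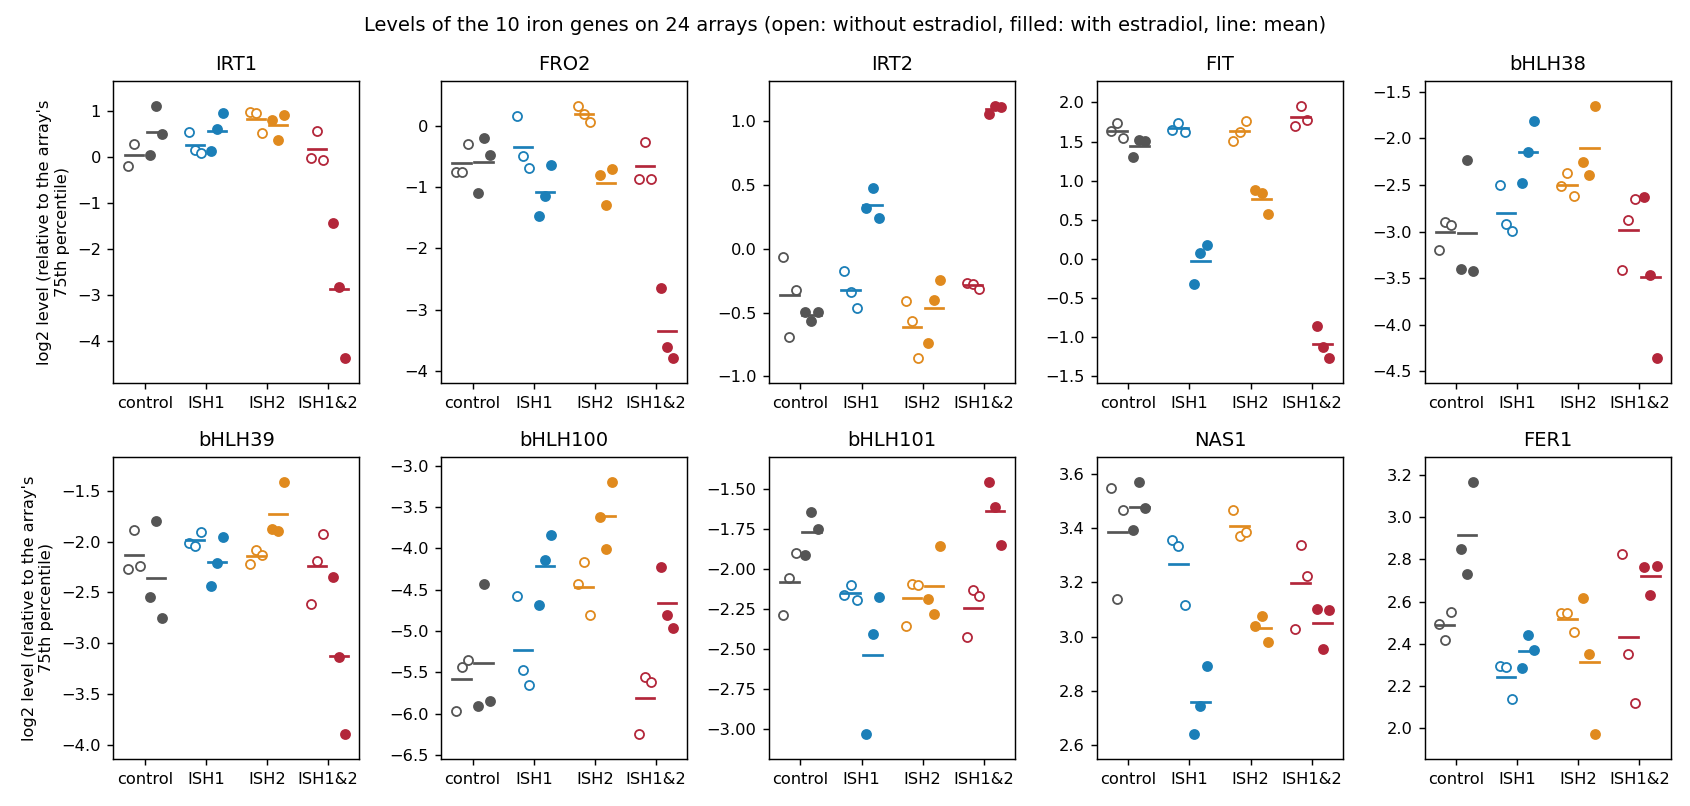
Log2 level relative to the 75th percentile of the array (y axis, a separate scale for each gene) of the 10 iron genes in the 4 lines (x axis), without (open) and with estradiol (filled), 1 point per array and a line at the mean. The 3 ISH1&2 arrays with estradiol lie below all other arrays for IRT1, FRO2 and FIT and above all others for IRT2, and the ISH1&2 points with estradiol spread from -1.42 to -4.36 for IRT1.

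In roots of ISH1&2, estradiol lowered the uptake transporter, the reductase and their regulator together. IRT1 was 8.16-fold lower, FRO2 6.45-fold lower and FIT 7.44-fold lower with estradiol, and bHLH39 was 1.84-fold lower. IRT2, bHLH100 and bHLH101 were 2.60-fold, 2.21-fold and 1.52-fold higher. bHLH38, NAS1 and FER1 did not pass the test. Thus 4 of 10 genes were called lower and 3 higher, where 33.0% of all genes were called lower and 31.6% higher in this line. At an adjusted p under 0.05 and at least a 2-fold difference, 3 genes were lower and 2 higher, beside 7.38% and 12.0% of all genes. The median log2 difference of the 10 genes was -0.33, and that of all genes was -0.01. In whole roots, fewer cells of a type and less RNA per cell cannot be told apart.

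IRT1, the main ferrous iron transporter of the root epidermis, lies on chromosome 4 at 10707344 to 10709015 (TAIR10.1). On the ISH1&2 arrays without estradiol its log2 level was -0.02, 0.57 and -0.06, and with estradiol it was -1.42, -2.81 and -4.36. The groups did not overlap, and the 3 arrays with estradiol differed among themselves by more than any other group. The difference was -3.03 ± 0.49 (SE; limma, adjusted p = 3.8e-05), and 247 of the 27816 genes had a lower log2 difference. Without replicate 1 of ISH1&2 with estradiol it was -3.75 and without replicate 3 it was -2.28. A second IRT1 probe gave -3.18 ± 0.45 (adjusted p = 6.0e-06).

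In the other lines the IRT1 level was not shown to move. It was -0.19 and 0.28 on the 2 control arrays without estradiol that measured it, and 0.04, 1.10 and 0.50 with estradiol. The value of control replicate 1 without estradiol was left out because the scanner software marked the spot as an outlier. In ISH1 the level was 0.55, 0.14 and 0.10 without and 0.13, 0.62 and 0.96 with estradiol. In ISH2 it was 0.98, 0.95 and 0.52 without and 0.80, 0.37 and 0.90 with estradiol. The groups overlapped in each of these 3 lines. When the 8 groups were ordered by mean, from ISH2 without estradiol at 0.82 to ISH1&2 with estradiol at -2.86, the only neighbours whose ranges did not overlap were the last pair, the control without estradiol at 0.04 and ISH1&2 with estradiol. The response of ISH1&2 minus that of the control plants was -3.53 ± 0.74, minus that of ISH1 it was -3.33 ± 0.70 and minus that of ISH2 it was -2.90 ± 0.70 (limma, adjusted p = 0.00064, 0.00075 and 0.0020).

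FRO2, the ferric chelate reductase, lies on chromosome 1 at 208995 to 213082. In ISH1&2 its level was -0.88, -0.26 and -0.86 without and -2.65, -3.62 and -3.79 with estradiol, and the groups did not overlap. The difference was -2.69 ± 0.31 (adjusted p = 4.9e-07 by limma). In ISH2 the level fell as well, from 0.32, 0.19 and 0.05 to -0.80, -1.29 and -0.71, again without overlap, by 1.12 ± 0.31 (adjusted p = 0.0063 by limma). The ISH2 level without estradiol was 0.79 ± 0.31 above that of the control plants, which did not pass (adjusted p = 0.35 by limma). In ISH1 it was 0.16, -0.50 and -0.70 without and -1.47, -1.15 and -0.63 with estradiol, so that the groups overlapped. This difference of -0.74 ± 0.31 was called at an adjusted p of 0.047 by limma. The ISH1 call was lost in 10 of 20 alternatives, and also without several single arrays of the other lines, which enter through the shared spread. Among the 10 were the fits without replicate 1 of ISH1 without estradiol (-0.49, adjusted p = 0.22) or replicate 1 of ISH1 with estradiol (-0.55, adjusted p = 0.18). In the control plants FRO2 was at -0.76, -0.75 and -0.30 without and -1.10, -0.21 and -0.48 with estradiol. The response of ISH1&2 differed from that of the control plants by -2.69, from that of ISH1 by -1.95 and from that of ISH2 by -1.57, each with an SE of 0.44 (adjusted p = 4.8e-05, 0.0013 and 0.0059 by limma), while those of ISH1 and ISH2 against the control plants, -0.75 and -1.13, did not pass (adjusted p = 0.18 and 0.082).

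FIT, the bHLH factor required for IRT1 and FRO2 transcription under iron deficiency, lies on chromosome 2 at 12004658 to 12006276. Its level was graded over the lines. Without estradiol it lay between 1.51 and 1.95 on the 12 arrays of the 4 lines. With estradiol it was 1.3, 1.52 and 1.5 in the control plants, 0.88, 0.84 and 0.58 in ISH2, -0.32, 0.07 and 0.18 in ISH1, and -0.86, -1.13 and -1.27 in ISH1&2. None of the 4 groups with estradiol overlapped another. The differences were -0.87 in ISH2, -1.70 in ISH1 and -2.90 in ISH1&2, each with an SE of 0.13 (adjusted p = 1.6e-05, 1.6e-09 and 9.9e-13 by limma). A second FIT probe gave -0.91, -1.62 and -2.84 in these lines. In the control plants the difference was -0.20 and did not pass the test. Their arrays with estradiol all lay below those without, which were at 1.63, 1.74 and 1.54. All 5 differences in response between lines that were tested passed for FIT, from -0.67 ± 0.18 for ISH2 against the control plants to -2.70 ± 0.18 for ISH1&2 against the control plants (adjusted p = 0.010 and 7.6e-10 by limma).

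**Figure D2:**
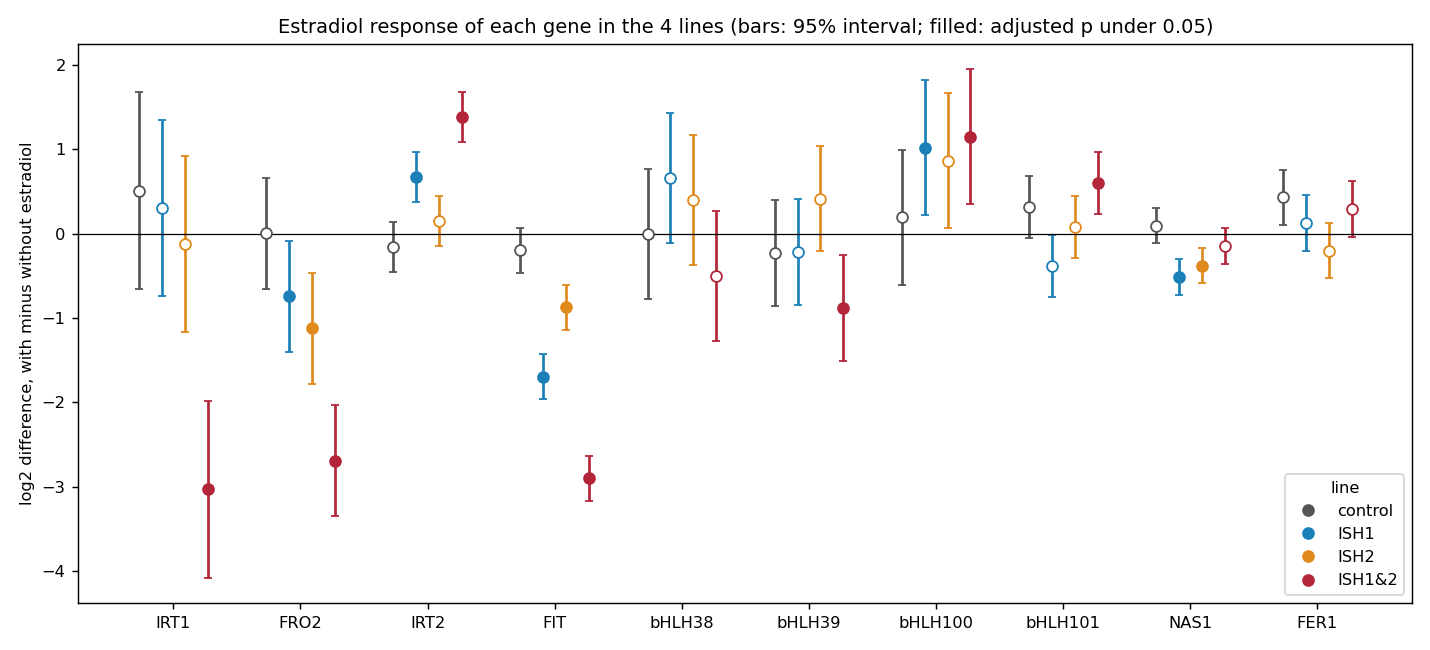
Log2 difference with minus without estradiol (y axis) of each of the 10 genes (x axis) in the 4 lines, with the 95% interval of the limma fit, filled where the adjusted p was under 0.05. FIT falls by 0.87, 1.70 and 2.90 in ISH2, ISH1 and ISH1&2, in ISH1&2 IRT1 falls by 3.03 while IRT2 rises by 1.38, and in the other 3 lines IRT1 is not called.

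IRT2, a close relative of IRT1 that is also expressed in the root epidermis, lies beside IRT1 on chromosome 4, at 10703348 to 10704838, and rose in ISH1&2, where IRT1 fell. In ISH1&2 its level was -0.27, -0.27 and -0.32 without and 1.05, 1.11 and 1.11 with estradiol. In ISH1 it was -0.17, -0.34 and -0.47 without and 0.32, 0.47 and 0.24 with estradiol. Neither line's groups overlapped, and the replicates with estradiol in ISH1&2 had an SD of 0.03, where those of IRT1 had an SD of 1.47. The rise was 1.38 ± 0.14 in ISH1&2 and 0.67 ± 0.14 in ISH1 (adjusted p = 8.4e-08 and 0.00043 by limma), and both calls held in each of 20 alternatives, although the rise in ISH1, at 1.59-fold, is below a 2-fold minimum. In ISH2 it was -0.41, -0.57 and -0.86 without and -0.74, -0.40 and -0.25 with estradiol, and in the control plants -0.07, -0.69 and -0.32 without and -0.50, -0.57 and -0.50 with estradiol, and neither difference passed. The response of ISH1&2 exceeded that of ISH1 by 0.71 ± 0.20, that of ISH2 by 1.23 ± 0.20 and that of the control plants by 1.54 ± 0.20 (adjusted p = 0.0066, 4.0e-05 and 3.1e-06 by limma). Whether the probe of either transporter also binds the transcript of the other was not tested.

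The 4 bHLH factors that dimerize with FIT did not move as a group. In ISH1&2 the tandem pair bHLH38 and bHLH39, 1144 bases apart on chromosome 3 at 21084035 to 21085245 and 21086390 to 21087710, had lower means with estradiol, while bHLH100 on chromosome 2 (17198037 to 17199454) and bHLH101 on chromosome 5 (1138410 to 1139633) rose. bHLH39 was at -2.62, -2.20 and -1.92 without and -2.35, -3.13 and -3.89 with estradiol. Its replicate 1 with estradiol lay above replicate 1 without, so the groups overlapped, and the difference of -0.88 ± 0.30 had an adjusted p of 0.015 by limma. Without replicate 3 of ISH1&2 without estradiol it was -0.72 (adjusted p = 0.070), and without replicate 3 with estradiol it was -0.50 (adjusted p = 0.12). In ISH2 all 3 arrays with estradiol, at -1.88, -1.90 and -1.41, lay above those without, at -2.22, -2.08 and -2.13, but the difference of 0.41 ± 0.30 did not pass (adjusted p = 0.27). The response of ISH1&2 lay below that of ISH2 by -1.29 ± 0.42 (adjusted p = 0.015 by limma), while against the control plants it was -0.65 ± 0.42 (adjusted p = 0.21).

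bHLH38 was at -3.41, -2.88 and -2.65 without and -2.63, -3.47 and -4.36 with estradiol in ISH1&2. Here the array of replicate 1 with estradiol was above every array without it, and the difference of -0.51 ± 0.37 did not pass (adjusted p = 0.24 by limma). Without that array it was -0.93 (adjusted p = 0.028). In ISH1 bHLH38 was at -2.50, -2.92 and -2.99 without and -2.48, -2.14 and -1.81 with estradiol, which did not overlap, and the difference of 0.66 ± 0.37 did not pass (adjusted p = 0.13). In ISH2 it lay between -2.61 and -1.65 and in the control plants between -3.43 and -2.23, and in both the groups overlapped. The probes of bHLH38 and bHLH39 target related genes, and whether they bind each other's transcript was not tested.

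bHLH100 was called higher with estradiol in ISH1&2 and ISH1, and not in ISH2 or the control plants. In ISH1&2 its level was -6.24, -5.56 and -5.62 without and -4.23, -4.81 and -4.96 with estradiol, with no overlap, and it rose by 1.15 ± 0.38 (adjusted p = 0.013 by limma). The call was lost without replicate 1 of either ISH1&2 group, at 0.93 in each case (adjusted p = 0.066 for both). In ISH1 bHLH100 was at -4.58, -5.47 and -5.65 without and -4.68, -4.14 and -3.84 with estradiol, and rose by 1.01 ± 0.38 (adjusted p = 0.027 by limma) although 1 array overlapped. Without replicate 2 or 3 of either ISH1 group the adjusted p was above 0.05, with differences of 0.81 to 0.97. In ISH2, where all 3 arrays with estradiol at -3.62, -4.00 and -3.20 lay above those without at -4.43, -4.17 and -4.80, the difference of 0.86 ± 0.38 had an adjusted p of 0.069. The control arrays lay between -5.96 and -4.43, and the groups overlapped. Their difference of 0.19 ± 0.38 did not pass (adjusted p = 0.80 by limma) and was as low as -0.29 when 1 array was left out. None of the 5 differences in response tested was called for bHLH100, and that of ISH1&2 minus the control plants was 0.95 ± 0.54 (adjusted p = 0.15).

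bHLH101 was at -2.42, -2.13 and -2.17 without and -1.46, -1.62 and -1.85 with estradiol in ISH1&2. It rose by 0.60 ± 0.17 without overlap of the groups (adjusted p = 0.0055 by limma). In ISH1 it was at -2.17, -2.10 and -2.19 without and -3.03, -2.41 and -2.17 with estradiol, a difference of -0.38 ± 0.17 that did not pass (adjusted p = 0.064). The response of ISH1&2 was above that of ISH1 by 0.98 ± 0.25 (adjusted p = 0.0029 by limma), and its difference from that of the control plants, 0.29 ± 0.25, did not pass (adjusted p = 0.34). The control arrays lay between -2.29 and -1.65 and the ISH2 arrays between -2.35 and -1.86, with overlap. With normexp background correction, the rises of bHLH100 and bHLH101 in ISH1&2 were 0.86 and 0.48 and no longer passed (adjusted p = 0.095 and 0.098).

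NAS1, on chromosome 5 at 1457641 to 1459039, fell in both single-gene lines and was not called in ISH1&2. In ISH1 its level was 3.36, 3.34 and 3.12 without and 2.64, 2.74 and 2.89 with estradiol. In ISH2 it was 3.47, 3.37 and 3.39 without and 3.04, 3.07 and 2.98 with estradiol. Both lines' groups were apart, and the falls were -0.51 ± 0.10 and -0.38 ± 0.10 (adjusted p = 0.00023 and 0.0043 by limma). In ISH1&2 the levels of 3.03, 3.34 and 3.22 without and 3.1, 2.95 and 3.1 with estradiol overlapped, and the difference was -0.14 ± 0.10 with a 95% interval from -0.36 to 0.07. The response of ISH1&2 lay above that of ISH1 by 0.37 ± 0.14 (adjusted p = 0.041 by limma), a call that was lost in 13 of 26 alternatives. Its differences from the response of ISH2, 0.23 ± 0.14, and from that of the control plants, -0.24 ± 0.14, did not pass (adjusted p = 0.17 for both by limma). The control plants had 3.55, 3.14 and 3.47 without and 3.39, 3.57 and 3.48 with estradiol, and the responses of ISH1 and ISH2 lay below theirs by -0.61 ± 0.14 and -0.47 ± 0.14 (adjusted p = 0.0017 and 0.022 by limma).

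FER1, on chromosome 5 at 227953 to 230051, gave no call in any line. Its level lay between 1.97 and 3.17 over the 24 arrays. In ISH1&2 it was 2.83, 2.35 and 2.12 without and 2.76, 2.63 and 2.77 with estradiol, a difference of 0.29 ± 0.16 (adjusted p = 0.12 by limma), which became 0.48 without replicate 1 of ISH1&2 without estradiol (adjusted p = 0.0074). In the control plants all 3 arrays with estradiol, at 2.85, 2.73 and 3.17, were above those without, at 2.49, 2.42 and 2.55, and the difference of 0.43 ± 0.16 had an adjusted p of 0.076. The other 2 FER1 probes gave 0.07 and 0.19 in ISH1&2 and 0.20 and 0.28 in the control plants, none of which passed. In ISH2 they gave -0.49 and -0.34, of which the first passed (adjusted p = 0.015), beside -0.20 for the brightest probe. The response of ISH2 minus that of the control plants was -0.63 ± 0.22 for the brightest probe (adjusted p = 0.051 by limma) and passed under several alternatives, among them the second probe.

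In the single-gene lines the calls were fewer. In ISH1, 2 of the 10 genes were higher (IRT2 and bHLH100) and 3 lower (FRO2, FIT and NAS1), beside 26.3% and 36.4% of all genes. In ISH2, 0 were higher and 3 lower (FRO2, FIT and NAS1), beside 27.3% and 21.9%. FRO2 and FIT were thus called lower in each of the 3 inducible lines, but the call of FRO2 in ISH1 was lost in 10 of 20 alternatives. Against the control plants, the response of FIT was called in all 3 lines and that of FRO2 in ISH1&2 only. Differences in response against the control plants, which share the control arrays, were called for 4 genes in ISH1, 2 in ISH2 and 4 in ISH1&2, where 48.2%, 21.2% and 52.1% of all genes were called. Between ISH1&2 and ISH1 they were called for 6 genes and between ISH1&2 and ISH2 for 5, beside 46.4% and 54.7% of all genes. No test of these counts against the shares over all genes was made. By size IRT1, FIT and FRO2 had 247, 278 and 331 of 27816 genes below them in ISH1&2, where 5 of the 10 genes changed at least 2-fold.

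The arrays of a group differed more for these genes than for most. The SD within groups was 0.63 for IRT1, 0.48 for bHLH100, 0.47 for bHLH38, 0.40 for FRO2 and 0.38 for bHLH39, against a median of 0.10 over all genes, and 94.1% of all genes had a smaller SD than IRT1. The deviations ran together. Among ISH1&2 arrays with estradiol, replicate 1 was the highest and replicate 3 the lowest for IRT1, FRO2, FIT, bHLH38, bHLH39, bHLH100 and bHLH101. Among control arrays with estradiol, replicate 2 was the highest for each of these 7 genes. Among ISH1 arrays with estradiol it was replicate 3 for the same 7. These highest arrays lay on 3 different slides, slides 4, 5 and 6. In ISH2 with estradiol, and in each line without estradiol, no array was the highest for all 7.

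**Figure D3:**
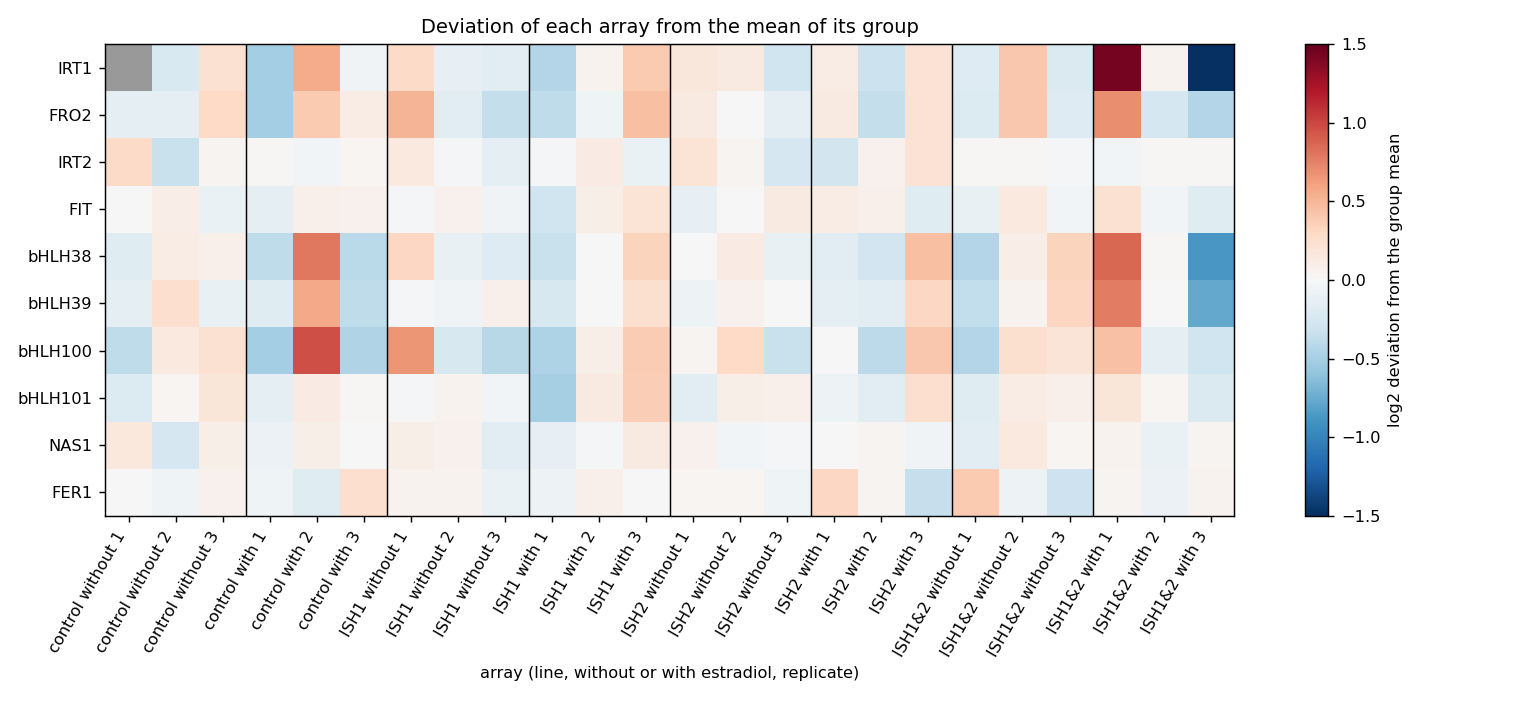
Log2 deviation of each of the 24 arrays (x axis, by line, treatment and replicate) from the mean of its group for the 10 genes (y axis), on a colour scale from -1.5 to 1.5 with a missing value in grey. Columns tend to have 1 colour for IRT1, FRO2 and the 4 bHLH genes, most of all the control array of replicate 2 and the ISH1&2 arrays of replicates 1 and 3, all with estradiol, while the IRT2 and NAS1 rows are pale.

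Over the 24 arrays, the deviations of bHLH38 and bHLH39 from their group means had a Pearson correlation of 0.95 (Spearman 0.89), and 0.91 without the 2 arrays farthest from the median of bHLH38. Of the 27815 other genes tested, 0 had a higher value with bHLH38 than bHLH39. bHLH100 had 0.86 with 3 genes above it, IRT1 0.85 (23 arrays) with 4 genes above it, FRO2 0.75 with 37 genes above it and bHLH101 0.68 with 132 genes above it, whereas the median over all genes was 0.02. FIT had 0.45, with 1618 genes above it. IRT2 had 0.00 and FER1 had -0.45, with 26921 genes above it. Among the 21 pairs of the 7 genes that ran together, a choice made after their values were seen, the values lay between 0.33 and 0.95, and without the 2 farthest arrays between 0.18 and 0.94. The points share the scaling of each array, and are described here without a test. The spread of the inducible genes differed by group. In ISH1&2 with estradiol the SD was 0.11 for ATHB25 and 0.07 for REM7, beside 1.47 for IRT1. In ISH1 with estradiol it was 0.07 for ATHB25 and 1.41 for REM7, beside 0.42 for IRT1. For the control plants with estradiol these values were 0.82, 0.28 and 0.53, and for ISH2 with estradiol 0.41, 0.20 and 0.29. ATHB25 was well above background on 2 of these control arrays and on 0 of these ISH2 arrays. Its SD there is thus one of signals near background. Whether the spread of the inducible genes bears on that of the iron genes was not tested.

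**Figure D4:**
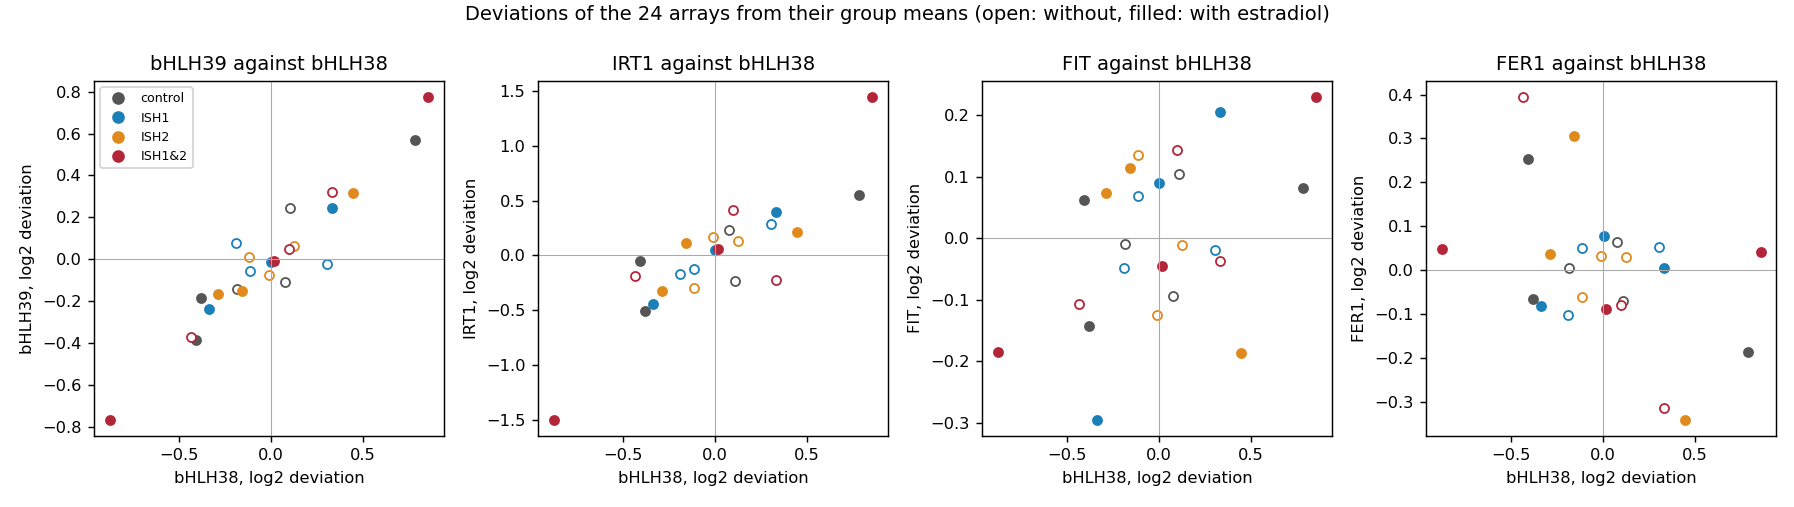
Log2 deviation from the group mean of bHLH39, IRT1, FIT and FER1 (y axes) against that of bHLH38 (x axes) on the 24 arrays (23 for IRT1), open without and filled with estradiol, coloured by line. bHLH39 and IRT1 rise with bHLH38 (Pearson 0.95 and 0.85), FIT less so (0.45), and FER1 runs the opposite way (-0.45).

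Over the levels of all arrays, the 5 genes most like IRT1 were AT3G58060 (Pearson 0.97 over 23 arrays), FAR5 (0.96), WRKY24 (0.95), PP2-A8 (0.95) and AT1G01630 (0.94), and all had a lower fitted level with estradiol in ISH1&2, with log2 differences of -0.55 to -3.61. Those most like bHLH39 were bHLH38 (0.83 over 24 arrays), IRT1 (0.82 over 23 arrays), NAC060 (0.82), FAR5 (0.82) and AT5G44380 (0.82). For FER1 the highest values were lower, from 0.69 for AT5G55050 and 0.68 for CYP709B2 to 0.64 for AT5G55790. These values describe the 8 groups as much as the arrays within them.

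Other genes of iron homeostasis, 48 of which were measured, were grouped in 4 lists, and their counts are set beside the 33.0% of all genes called lower and the 31.6% called higher in ISH1&2. No test between lists was made. Of 13 genes listed under uptake and secretion, 9 were called lower and 2 higher. Their median log2 difference was -0.93, where the median of all genes was -0.01. Not all of the list acts at the root surface, since it holds vacuolar and mitochondrial proteins as well. CYP82C4, a cytochrome P450 of coumarin synthesis, was at -4.32 ± 0.39 (SD, n = 3) without and -7.46 ± 1.45 with estradiol and fell by 3.14 on the log2 scale. MTP3, a vacuolar zinc transporter of iron-deficient roots, fell by 2.79, from -1.69 ± 0.10 to -4.48 ± 0.49. FRO3, a mitochondrial ferric reductase and the largest rise in this list, rose by 1.03, and BGLU42, a beta-glucosidase, by 0.17.

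Of 9 genes of transport within the plant, 7 were called higher and 1 lower, beside the same 31.6% and 33.0% of all genes, with a median of 0.78. In ISH1 the counts for this list were also 7 and 1, with a median of 0.75, beside 26.3% and 36.4% of all genes. NAS3, a further nicotianamine synthase, was not well above background without estradiol and was at -1.11 ± 0.16 with it, at least 288-fold higher. YSL1, a transporter of metals bound to nicotianamine, rose by 5.29, from -7.00 ± 0.26 to -1.71 ± 0.21. NAS2 was the only gene of this list called lower, from 0.94 ± 0.26 to -1.31 ± 0.55, a fall of -2.25 (adjusted p = 1.8e-07 by limma). The nicotianamine synthase genes were thus spread from a fall for NAS2 and no call for NAS1 to a rise for NAS3.

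Of 17 regulators, 6 were higher and 6 lower, with a median of -0.03. AT4G37850 rose by 4.94 and AT1G47395 by 2.34, while MYB10, a MYB factor of iron-deficient roots, fell by 2.37 and AT2G22760 by 1.62. These genes moved the same way in the single-gene lines. AT4G37850 rose by 6.34 in ISH1 and 2.68 in ISH2, and AT1G47395 by 2.465 and 1.65. MYB10 fell by 1.16 and 1.01, and AT2G22760 by 0.66 and 0.48. In ISH1 6 of the 17 regulators were higher and 9 lower, beside 26.3% and 36.4% of all genes. Of 9 genes of storage and the vacuole, 1 was higher and 5 lower, with a median of -0.29, and the counts were the same in ISH1, with a median of -0.27. VTL5 and VTL1, related to vacuolar iron transporters, fell by 2.42 and 1.25, and NRAMP4, which releases iron from the vacuole, rose by 0.28. Over the 48 genes, 16 were higher and 21 lower in ISH1&2, beside 31.6% and 33.0% of all genes. In the control plants 6 were higher and 7 lower, beside 7.14% and 7.85% of all genes. In ISH1 18 were higher and 18 lower, beside 26.3% and 36.4%, and in ISH2 11 and 14, beside 27.3% and 21.9%. For uptake and secretion these counts were 4 higher and 3 lower of 13 in ISH1 and likewise in ISH2.

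**Figure D5:**
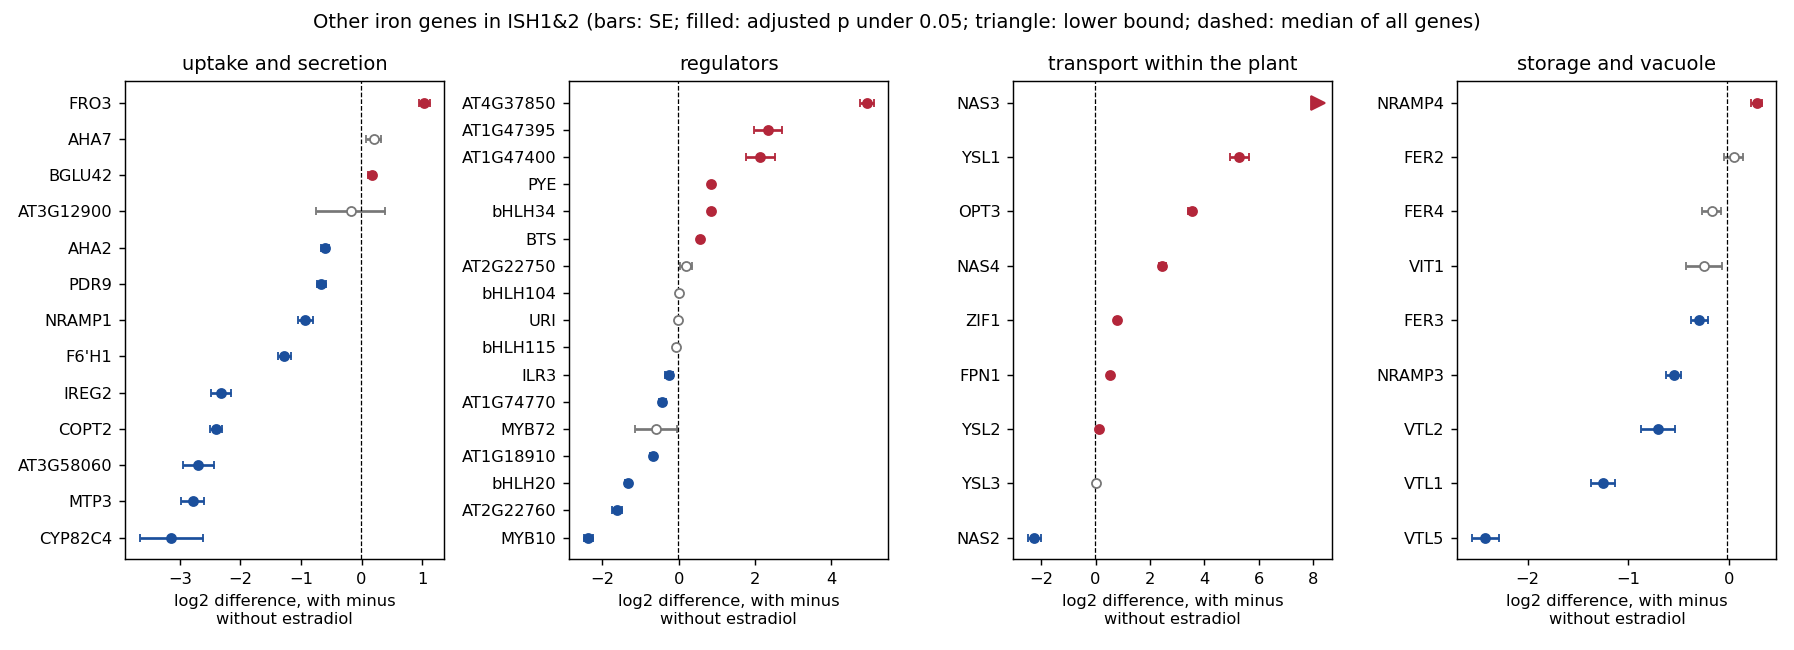
Log2 difference with minus without estradiol in ISH1&2 (x axis) with its SE for the 48 other iron genes in 4 lists (y axis), filled where the adjusted p was under 0.05, a triangle for the lower bound of NAS3 and a dashed line at the median of all genes tested (-0.01). In the list of uptake and secretion 9 of 13 genes lie to the left and are filled, and in that of transport within the plant 7 of 9 lie to the right and are filled.

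Markers of root tissues and of green shoot tissue moved with the same comparison, and their part in the iron results was not tested. In ISH1&2, 7 of 7 markers of green tissue rose with estradiol, and their summed level relative to the 75th percentile went from between 51.0 and 62.1 to between 171 and 185. In ISH2, 7 of 7 fell, with sums of 52.9 to 58.7 without and 12.3 to 14.0 with estradiol, and in ISH1 4 of 7 fell. Of all genes, 21.9% were called lower in ISH2 and 36.4% in ISH1. Of 8 root hair markers, 6 rose and 0 fell in ISH1&2 (summed level 11.6 to 12.2 without and 18.8 to 20.1 with estradiol). GL2, a marker of the hairless epidermal cells, fell by 0.23 on the log2 scale. Of 4 endodermis markers 3 fell (CASP1, CASP2 and MYB36) and SCR rose by 0.64 on the log2 scale, with summed levels of 21.0 to 24.9 without and at most 12.1 with estradiol. Of 3 stele markers SHR rose by 0.43, and WOL and PHO1 fell by 0.36 each. The single cortex marker AT1G62500 fell by 1.68 on the log2 scale. The counts in ISH1&2 stand beside 31.6% of all genes called higher and 33.0% called lower in this line. All root markers were above background in every group.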

How the data were processed

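According to headers of the files, intensity values deposited by the authors are the processed signals of Agilent Feature Extraction 10.7.3.1, corrected for background by that software. The authors also deposited log2 values, shifted to the 75th percentile of each array and centred on each probe's median, which were used as an alternative. Their correlation with the values used here was 0.99992 to 0.999995 over the arrays. R 4.3.3 was used, 346 outlier spots were left out, spots of a probe were averaged, and log2 minus the 75th percentile of the array was taken. Of 43603 probes, 34348 were matched to a locus by accession (TAIR10.1). The brightest of a gene's probes stood for it, among the 36573 probes that some group had well above background on each of its 3 arrays. Differences were tested with limma 3.58.1 over all 24 arrays in 8 groups, two-sided, with Benjamini-Hochberg adjustment over 27816 genes, and an adjusted p under 0.05 was called. The fit was tested on simulated data. The 3 arrays in each group set the precision.

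The 10 genes, the lists of iron genes and the markers were chosen with earlier results of these data known. Besides the 10 genes, the text names the inducible genes, for each list the 2 largest rises and the 2 largest falls among those called in ISH1&2, and the 5 genes matched to a locus that were most like IRT1, bHLH39 and FER1. Loci without a name in the reference table are given by locus, and no sequences are shown, so a planned search of the promoters for motifs was not run. A group not well above background on any array is given as a bound, raising each array to its lowest signal well above background where the probe lay below that. Alternatives were quantile normalization, normexp correction of the median signal (offset 50), the authors' log2 values, other filters on dim probes, a floor, a pseudocount of 16, other probes, the replicate number or the slide as a block (statmod 1.5.0), a variance trend, fits of the compared arrays alone, a 2-fold minimum, and leaving out arrays.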

Additional observations from a re-analysis of the deposited data

Results flagged for a closer look

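Over the 10 genes and 5 differences in response tested, 21 cases were called. They are given here as log2 differences in response (limma, adjusted p under 0.05 over all genes). Of all genes, 48.2%, 21.2% and 52.1% were called for ISH1, ISH2 and ISH1&2 against the control plants. For ISH1&2 against ISH1 and against ISH2, 46.4% and 54.7% of all genes were called. The 21 cases were not tested against these shares. Against the control plants, the response of ISH1 was higher for IRT2 by 0.83 and lower for FIT by -1.5, for bHLH101 by -0.69 and for NAS1 by -0.61. That of ISH2 was lower for FIT by -0.67 and for NAS1 by -0.47. That of ISH1&2 was higher for IRT2 by 1.54 and lower for IRT1 by -3.53, for FRO2 by -2.69 and for FIT by -2.70.

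Against ISH1, the response of ISH1&2 was higher for IRT2 by 0.71, for bHLH101 by 0.98 and for NAS1 by 0.37, and lower for IRT1 by -3.33, for FRO2 by -1.95 and for FIT by -1.20. Against ISH2, it was higher for IRT2 by 1.23 and lower for IRT1 by -2.90, for FRO2 by -1.57, for FIT by -2.02 and for bHLH39 by -1.29. The control arrays are shared by the first 3 comparisons and the ISH1&2 arrays by the last 3, so these values are not independent of each other. For NAS1 and bHLH101 the response of ISH1 was called against that of the control plants and that of ISH1&2 was not. The difference of NAS1 between ISH1&2 and ISH1 was lost in 13 of 26 alternatives. The differences against the control plants were lost in 7 alternatives for bHLH101 in ISH1, 4 of them leaving out 1 array, and in 6 for NAS1 in ISH2, likewise 4, while that of bHLH101 between ISH1&2 and ISH1 was lost with normexp alone (adjusted p = 0.12).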

How the results depend on the processing

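The calls of IRT1, IRT2, FRO2 and FIT in ISH1&2, and of their differences in response from the control plants, ISH1 and ISH2, held in direction and at an adjusted p under 0.05 under each alternative, as did FIT in ISH1 and ISH2. The 2-fold minimum is counted apart: FIT in ISH2 (1.83-fold) and IRT2 for ISH1&2 against ISH1 (0.71 on the log2 scale) lie below it. Of 1346 values under alternatives of the 40 estradiol responses and 21 called differences in response, 49 lost and 10 gained a call and 0 called values changed sign. With at least a 2-fold difference required, the number of genes called was 2 in ISH1 and 1 in ISH2, and for responses it was 1 for ISH1 against the control plants, 0 for ISH2 against the control plants and 3 for ISH1&2 against ISH1. With only the arrays of the comparison, 5 genes were called in ISH2, where bHLH39 and bHLH100 were added. For ISH2 against the control plants, 1 gene was called with normexp and 1 without the 2 control arrays with a contradicting description. Leaving out 1 array gave 0 to 1 calls in the control plants (1 without ISH2 with estradiol replicate 3 or ISH1&2 without estradiol replicate 1), 3 to 5 in ISH1 (3 without replicate 2 of either ISH1 group) and 1 to 3 for ISH2 against the control plants (1 without control replicate 2 or ISH2 replicate 1, both without estradiol, or ISH2 replicate 3 with estradiol). The other counts moved by at most 1.5 times. The replicate numbers were not taken to pair the arrays: same-numbered arrays of a line with and without estradiol had residual correlations of -0.035 to 0.099, over 0.1 in 0 of 12 pairs. With the replicate block, FRO2 in ISH1 (adjusted p = 0.062) and NAS1 for ISH1&2 against ISH1 (adjusted p = 0.055) lost their call and bHLH101 in ISH1 (adjusted p = 0.041) and FER1 for ISH2 against the control plants gained one, so 5 genes were called in ISH1, 7 in ISH1&2 and 3 for ISH2 against the control plants. With the slide as a random block for the estradiol responses, only the call of FRO2 in ISH1 changed (adjusted p = 0.056), and with the slide as a fixed block for the differences in response only that of NAS1 for ISH1&2 against ISH1 (adjusted p = 0.066). The causes were not tested.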
